A study of Mus musculus with 24 samples.

Results

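CD4/CD8 double-positive (DP) thymocytes are the large intermediate population of T cell development, between the double-negative stages and the single-positive T cells. The arrays described here are the 4 made from DP cells of transgenic, Foxn1-deficient thymus (titled tg DP 4, 6, 6A and 6B) and the 3 from DP cells of Foxn1 heterozygous thymus (titled wt DP 2, 3 and 3A). They were chosen by title and genotype alone and are 7 of the 24 arrays of the series. Per the labels, the tg cells carry the genotype -/- and the wt cells +/-, so the wt group also carries 1 mutant Foxn1 allele although its source is labelled wild-type. The labels used here name neither the transgenes nor their promoters, and give no age or strain.

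The series compared lymphoid progenitors from different niches, and these 7 arrays ask how DP cells that formed in a Foxn1-deficient, transgenic thymus differ from DP cells of a Foxn1-expressing one. Sorted cells were lysed without culture, and their polyadenylated RNA was amplified by PCR before labelling with Cy3. Nothing in the labels says that samples of a group came from separate animals, and the titles share numbers (3 and 3A, and 6, 6A and 6B). Errors and p-values therefore describe how far these samples spread, and that spread may be technical.

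Foxn1 is the transcription factor that thymic epithelial cells need to attract and instruct lymphoid progenitors. It acts in the epithelium, through the products it induces there, among them the Notch ligand Dll4, the chemokine Ccl25 and the cytokine Scf. Developing T cells that receive these signals commit to the lineage, rearrange the T cell receptor (TCR) beta chain, proliferate and become DP cells, which then switch the recombinase back on to rearrange the alpha chain and depend on Bcl-xL for survival.

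Slc13a2, Laptm5 and Rps12 had the clearest higher values in tg DP cells, on every tg array, and Cst6 the clearest lower ones. Rag1, Rag2 and Trac spread widely among the tg arrays, with tg DP 4 at the bottom, where Rag2 and Trac were not well above background. Values are log2 of the processed signal minus the 75th percentile of that array, so 0 is the level of that percentile, and differences are tg mean minus wt mean with the standard error (SE) of limma's fit across all 24 arrays. No gene of 33542 tested passed limma's Benjamini-Hochberg adjusted p of 0.05 (0.0% called); the smallest adjusted p was 0.512. At an unadjusted p under 0.05, 362 genes were higher in tg (1.08%) and 748 lower (2.23%). The 4 tg values lay all above the 3 wt values for 903 of 34782 genes measured (2.6%) and all below for 1492 (4.29%). Without tg DP 4 the first of these counts was 1960 of 34782 and the second 2216. Fewer arrays are separated more easily, and such counts cannot fall when an array is left out. The median difference of all genes was -0.07. All differences below are therefore descriptions of these 7 arrays, and none is a change that passed the test.

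Distances within a group and between the groups overlapped. Between wt arrays the SD of the log2 differences over 29946 to 29970 genes ranged from 0.631 to 0.680. Between tg DP 6 and 6A it was 0.522, but between tg DP 6A and wt DP 3 it was 0.515, and tg DP 4 was 0.847 to 1.03 from the other tg arrays. The shared number 3 did not mark a closer pair than 2 and 3A did (0.642 against 0.631). tg DP 4, the one DP array on slide 1 and so without a wt partner there, was the lowest of the 7 arrays at 32.5% of the genes well above background on all of them, tg DP 6B at 24.1% and each of the other 5 at 3.26% to 10.8%. These 2 arrays were also the highest of the 7 most often, at 18.4% and 16.8% of those genes, against 10.3% to 15.9% for the others. Of the probes, 87.9% were well above background on tg DP 4 and 89.7% on tg DP 6B, against 93.4% to 94.9% on the others. In bulk samples like these, fewer cells of a type and less RNA per cell cannot be told apart.

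The targeted gene was read by 1 probe (chr11:78171867-78171926, mm9). Foxn1 measured 0.37, 0.22 and 0.17 in wt DP 2, 3 and 3A, and -0.17, 0.06, -0.02 and 0.22 in tg DP 4, 6, 6A and 6B. The groups overlapped, with a difference of -0.23 ± 0.23. Foxn1 belongs to the epithelium and not to thymocytes, so this does not test the genotype of the thymus the cells came from.

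The probes that carry the clearest contrasts, and those of 2 genes whose probes disagree (Cd8a and Bcl2l1), are shown by the first 30 of their 60 bases, as deposited and all in lower case, because each result below rests on what such a probe reads. Laptm5 and Rps12 each had probes that agreed, Slc13a2 and Cst6 a single probe. Of 27 named genes with more than 1 probe, 13 had probe differences of both signs, so a value below belongs to its probe.
Laptm5 probe 1 (chr4:130490785-130490844): aagagaatctggccaagcaatagttcctgg
Laptm5 probe 2 (chr4:130490893-130490952): agtgtacaaacaaaacaattccttcaaata
Rps12 probe 1 (chr10:23505428-23505711): aaaggctgatgacaacaagaaactagggga
Rps12 probe 2 (chr10:23504999-23505058): gccaaggatgtcatcgaggaatacttcaag
Slc13a2 (chr11:78210807-78210866): actctgggcaggaggcccctgggagcagga
Cst6 (chr19:5347982-5348041): ttgcaactttgagctccttgaagtcccctg
Cd8a probe 1 (chr6:71328911-71328970): cctgaaggaactaagagtcacccatggtcc
Cd8a probe 2 (chr6:71323885-71323944): tctcaccctgaacaagttcagcaaggaaaa
Bcl2l1 probe 1 (chr2:152655185-152655244): attggtgagtcggattgcaagttggatggc
Bcl2l1 probe 2 (chr2:152606404-152606463): atagtttgtgtgaaggtgaaagtgcagttc
Positions come from the annotation columns of the scanner files, build mm9; probe 1 is the brighter and was tested. Whether a probe lies in an exon or an untranslated region was not looked up here. Rps12 probe 1 spans 284 bases of the genome, so its 60 bases are split there. Both strands of a PCR product are labelled in the Klenow reaction the labels describe, so RNA of either strand at a probe's position gives the same signal.

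The contrast with the smallest p was Slc13a2, which encodes a sodium-dependent dicarboxylate (citrate) transporter of kidney and gut. It measured 0.65, 0.49 and 0.58 in wt DP 2, 3 and 3A, against 1.95, 3.38, 2.93 and 1.56 in tg DP 4, 6, 6A and 6B. All 4 tg arrays lay above all 3 wt arrays, by 1.88 ± 0.34 or 3.69-fold between means, at an adjusted p of 0.512. With arrays weighted by how closely they followed their own group, the difference was 2.27 and passed (limma with array weights, adjusted p 0.00127). The weights were 3.14 for tg DP 6A and 1.74 for tg DP 6, against 0.66 for 6B and 0.42 for 4. That fit counted arrays sharing a title number as separate samples, which the labels do not establish. In the 15 arrays of other wt thymocytes and fetal liver B cells Slc13a2 ranged from 0.12 to 1.91, so 3 of the 4 tg DP arrays lay beyond them all. The 2 arrays of tg thymic B cells measured 1.82 and 1.23, of which 1 lay above the 0.79 to 1.35 of IgM-negative fetal liver B cells. These 2 tg B arrays lay far apart, with an SD of 1.49 between them. Of their probes 89.5% and 80.5% were well above background. They also differ from the fetal liver arrays in organ, so organ and tg origin cannot be told apart there.

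Slc13a2 is a neighbour of Foxn1. Its probe lies 38.9 kb from the Foxn1 probe on chromosome 11. Within 250 kb of that probe 28 other named genes were measured, and Slc13a2 was the only one of them whose tg arrays all lay on one side of the wt arrays. The other 27 differed by -1.18 to 0.76, with 9 of them higher in tg. The antisense transcript Slc13a2os, 47.0 kb from the Foxn1 probe, differed by -0.97 ± 0.54, with values that overlapped. This neighbourhood was examined after the value of Slc13a2 was seen.

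**Figure D1:**
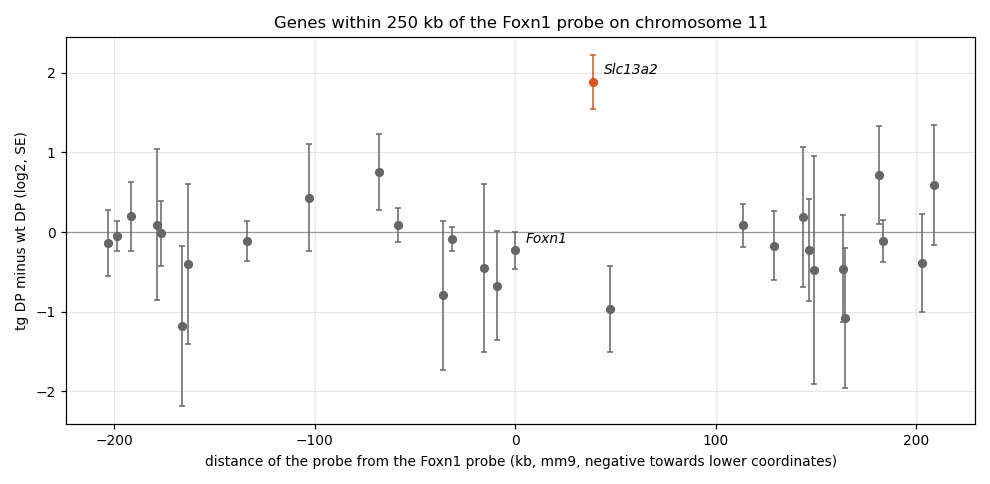
Difference between tg and wt DP means (log2, bars are limma's SE) for Foxn1 and 28 genes within 250 kb of its probe, against the distance between probes in kb. Slc13a2, at 38.9 kb and 1.88, is the one gene whose 4 tg arrays all lie above the 3 wt arrays (orange).

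Laptm5, a lysosomal membrane protein of blood cells that promotes degradation of the TCR zeta chain, had the largest difference between means of the 8 strongest higher genes. The gap between the nearest arrays of the groups was 0.90, beside 0.92 for Slc13a2. Its tested probe gave -1.87, -2.63 and -1.17 in wt DP 2, 3 and 3A, and 1.13, 0.69, -0.27 and 1.14 in tg DP 4, 6, 6A and 6B. The groups did not overlap, and the difference of 2.56 ± 0.74 is 5.92-fold. The second probe gave -3.06, -4.53 and -3.32 in wt and -1.57, -1.11, -2.27 and -0.77 in tg, again without overlap and with a difference of 2.21. The wt DP mean of the tested probe (-1.89) was below the means of wt DN3 (-0.09), SP4 (1.47) and SP8 (0.15) cells, and the tg DP mean (0.67) lay within that range. The same gene stood the other way in B cells, where tg minus fetal liver IgM-negative cells was -3.18. That value rests on the 2 tg B arrays, which lay far apart, and compares thymus with fetal liver.

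Rps12, a protein of the small ribosomal subunit, was also read by 2 probes. The tested one gave 0.73, 0.88 and 1.33 in wt DP 2, 3 and 3A, and 2.20, 2.39, 2.27 and 1.95 in tg DP 4, 6, 6A and 6B. The tg arrays were tightly grouped above the wt arrays, with a difference of 1.22 ± 0.32, and the second probe gave 1.82. The wt DP mean of 0.98 was below the means of all 6 other groups (1.32 to 2.08) and the tg DP mean of 2.20 above them all. Ribosomal protein genes have many near-identical pseudogenes, so the source of this signal is uncertain.

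The other strongest higher genes were Olfr118, Abi3, Ano6, Olfr120 and Adam9. Olfr118 and Olfr120 are olfactory receptor genes that lie near each other on chromosome 17. Olfr118 measured -0.28, -0.42 and -0.32 in wt and 1.64, 0.51, 0.35 and 1.94 in tg DP 4, 6, 6A and 6B, a difference of 1.45 ± 0.38. Olfr120 differed by 0.84 ± 0.24 and was likewise highest in tg DP 6B and 4. In both, tg DP 4 and 6B, the arrays with the fewest probes above background, lay above tg DP 6 and 6A; whether the 2 facts are connected was not tested. Abi3, an actin regulator of the WAVE complex family, differed by 1.07 ± 0.28. Ano6, a calcium-activated phospholipid scramblase, differed by 1.46 ± 0.39 and was highest in tg DP 4 (1.23). Adam9, a membrane metalloprotease, differed by 1.08 ± 0.31, from low signals of -3.71 to -1.48.

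Among the lower genes, Cst6, which encodes the secreted cysteine protease inhibitor cystatin M, had the largest difference between means. It measured -2.21, -1.45 and -1.50 in wt DP 2, 3 and 3A, against -4.58, -3.91, -3.09 and -4.62 in tg DP 4, 6, 6A and 6B. No tg array reached the lowest wt array, and the difference was -2.33 ± 0.51. The wt DP mean (-1.72) was above and the tg DP mean (-4.05) below the means of all 6 other groups, which ran from -3.70 to -2.38. Both tg B cell arrays (-2.96 and -3.03) also lay below the fetal liver IgM-negative B arrays (-2.69 to -2.15), a comparison that mixes organ with tg origin.

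The remaining lower genes had smaller differences. Klk13, a kallikrein-type serine protease, differed by -0.69 ± 0.17, and Crygs, an eye lens crystallin, by -0.61 ± 0.17. B4galnt1, an enzyme of complex ganglioside synthesis, measured -1.29, -1.35 and -1.27 in wt and -2.24, -2.80, -2.18 and -2.73 in tg. Its 3 wt arrays were nearly equal and the difference was -1.18 ± 0.31. Cfap45, a cilium protein, differed by -0.99 ± 0.26, Akr7a5, an aldehyde reductase, by -1.14 ± 0.31, and the unnamed transcript 9830107B12Rik by -1.49 ± 0.41. Celf1, an RNA-binding regulator of splicing and decay, differed by -0.89 ± 0.24 on its tested probe, but by 0.35 and -1.25 on its other 2.

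**Figure D2:**
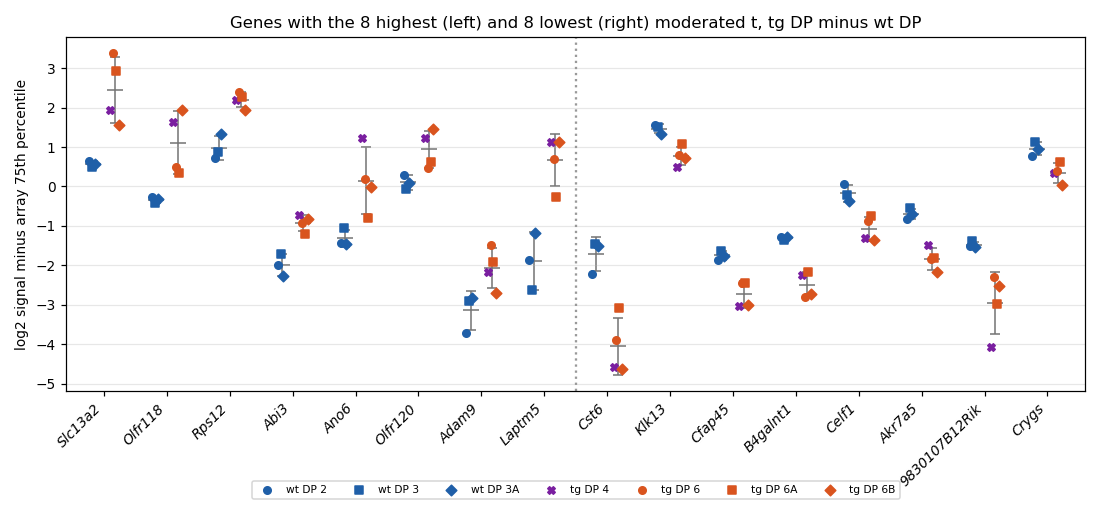
Log2 signal minus the array's 75th percentile for the 8 highest and 8 lowest genes by moderated t, one point per array (wt blue, tg orange, tg DP 4 purple) with mean and SD. The groups do not overlap in any of the 16, which the choice of genes required; Laptm5 and Cst6 show the largest differences between means, while the gap between nearest arrays is widest for Slc13a2 (0.92).

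Genes on which several probes gave the same answer were few. Of 4909 named genes with at least 2 probes well above background on all 7 arrays, every probe had the tg arrays wholly above wt for 7 (0.143%) and wholly below for 12 (0.244%). Ordered by the smaller of their probe differences, the first of them, found after the values were seen, were Laptm5, Romo1, Acp5, Rps12 and Me3. Romo1, a mitochondrial inner membrane protein, differed by -1.40 to -1.46 on 3 probes. Acp5, the tartrate-resistant acid phosphatase of macrophages and osteoclasts, differed by -1.34 and -1.51. Me3, a mitochondrial malic enzyme, differed by -0.97 and -1.47. Probes of 1 gene share the array and the amplified cDNA and are no replicates of each other.

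The genes that define the DP stage gave no group difference that held across arrays. Of 12 listed, 9 were higher in tg, beside 40.6% of all genes, with a median difference of 0.07 against -0.07 for all genes, and for 1 of them (Bcl2l1) the groups did not overlap. The mean level over the 12 was -0.55 on tg DP 4, 0.33 to 0.62 on the other tg arrays and -0.03 to 0.09 on the wt arrays. Among the DP arrays, the tg group thus held both the lowest and the highest levels of this list. The wt DN3 arrays stood at 0.13 to 0.30, above the wt DP arrays, and fetal liver IgM-negative B arrays at -0.25 to 0.36. The level of this list therefore did not mark the DP stage in this series. Counts for the lists below stand beside the shares of all genes: 40.6% higher in tg, 2.6% fully above wt and 4.29% fully below.

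Cd4, the class II coreceptor, measured 3.66, 3.42 and 3.35 in wt and 3.43, 3.50, 3.65 and 3.28 in tg, a difference of -0.013 ± 0.14. The 6 other groups, B cells included, measured 3.39 to 3.79, so this probe did not separate the cell types of the series, and neither did the dimmer one (2.26 to 2.78). The same held for Cd3e (0.46 to 0.84 in the other groups), for Ptcra, the pre-TCR alpha chain (2.29 to 2.69), and for Dntt, the template-independent polymerase (1.26 to 1.84). Their differences between tg and wt DP cells, 0.0069 ± 0.12, 0.022 ± 0.21 and 0.13 ± 0.14, stand under that limit.

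Cd8a, the class I coreceptor chain, differed by -0.39 ± 0.51 on the tested probe, with overlapping groups. The second Cd8a probe gave -2.70, -1.43 and -2.95 in wt DP 2, 3 and 3A, and -3.42, -0.15, -2.40 and 0.46 in tg DP 4, 6, 6A and 6B, a difference of 0.98 in the opposite direction. tg DP 4 was the lowest of the 7 arrays and tg DP 6B the highest. On this probe SP8 cells (-0.43) stood above wt DP (-2.36), DN3 (-3.41) and SP4 (-4.35) cells. On the tested probe those 4 groups lay between -1.45 and -0.95, closer together. Cd8b1, the partner chain of Cd8a, differed by 0.00042 ± 0.44. Its probe was lower in SP8 cells (-3.56) than in SP4 (-2.14), DN3 (-2.51) or fetal liver IgM-negative B cells (-2.37). It thus did not mark CD8 cells in this series, and its difference stands under that limit.

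Most recombination genes had a higher mean in tg. Of 12 measured, 10 were higher, with a median of 0.21, and in 4 of them (Lig4, Dclre1c, Hmgb1 and Hmgb2) all tg arrays lay above all wt arrays, beside 2.6% of all genes. Hmgb2 had a value on only 2 of the tg arrays, 4 and 6B. Rag1, a subunit of the recombinase, measured -2.02, -2.57 and -1.92 in wt DP 2, 3 and 3A, and -3.49, -0.85, -1.64 and 0.02 in tg DP 4, 6, 6A and 6B. tg DP 4 lay below all wt arrays and the other tg arrays above them all. The difference was 0.68 ± 0.62 over all arrays, 1.35 without tg DP 4, which leaves arrays of slide 2 only, and -0.02 when arrays sharing a number were averaged. The second Rag1 probe differed by 0.99, with groups that overlapped and tg DP 4 inside the wt range.

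Rag2, the other recombinase subunit, had the same order among the tg arrays. It measured -2.15, -1.75 and -2.13 in wt and -5.91, -0.39, -1.25 and 0.52 in tg DP 4, 6, 6A and 6B. It was not well above background on tg DP 4, so the value there, and each difference that includes it, is uncertain. The difference of 0.25 ± 1.40 was 1.64 without tg DP 4 and -1.10 with arrays of a number averaged, and its dimmer probe differed by -0.55. Single-positive cells, in which recombination has ended, measured -2.98 (SP4) and -2.94 (SP8) for Rag2, and -3.79 and -2.94 for Rag1. On the tested Rag1 probe, which was well above background on all 7 arrays, tg DP 4 (-3.49) lay between those 2 means. On the second Rag1 probe it did not. There tg DP 4 (-2.20) lay above SP4 (-3.63) and SP8 (-3.34) cells and within the wt range of -2.73 to -1.09.

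Hmgb1, the bending protein that assists the recombinase, gave the steadiest recombination contrast. It measured 3.69, 3.51 and 3.58 in wt and 3.81, 3.89, 3.92 and 4.07 in tg, a difference of 0.33 ± 0.18. Of its 8 probes, 6 differed by 0.27 to 0.43 and the other 2, the dimmest, by -0.03 and -0.07. Dclre1c (Artemis), the hairpin-opening nuclease, differed by 0.46 ± 0.23, with 0.13, -0.98 and -0.34 on its dimmer probes. Lig4, the ligase of end joining, was named after its values were seen; it ranged from -5.40 to -4.22 in wt and from -3.88 to -2.22 in tg, and was well above background on 2 of the 3 wt arrays.

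**Figure D3:**
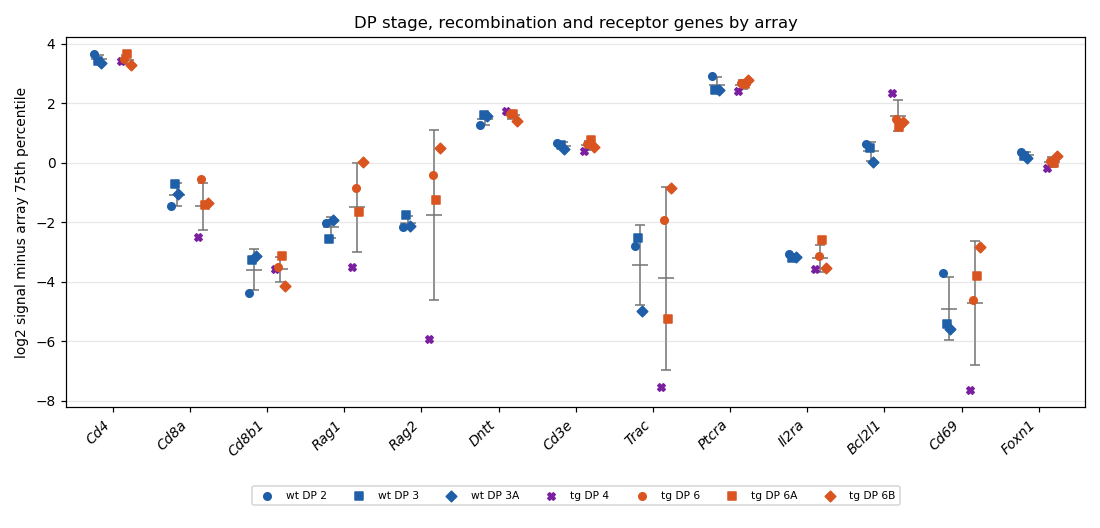
Log2 signal minus the array's 75th percentile for 13 genes of the DP stage, recombination and receptor set, one point per array with mean and SD. tg DP 4 (purple) is lowest for Rag1, Rag2, Trac and Cd69, the last 3 not well above background there, while Bcl2l1 separates the groups.

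Bcl2l1, which encodes the Bcl-xL protein that keeps DP cells alive while they rearrange Tcra, measured 0.64, 0.51 and 0.02 in wt DP 2, 3 and 3A, and 2.33, 1.46, 1.19 and 1.36 in tg DP 4, 6, 6A and 6B. The groups did not overlap on the tested probe, with a difference of 1.20 ± 0.63, and tg DP 4 was the highest. The other probe showed overlapping groups and a difference of -0.12. Among 16 survival and death genes 7 were higher and 9 lower in tg, with a median of -0.04, which was -0.24 with arrays of a number averaged. Bid, a death-promoting BH3 protein named after its values were seen, was the one member whose tg arrays all lay below wt. Of all genes 4.29% lay so. Bid measured -1.99, -2.39 and -2.59 in wt and -2.97, -4.14, -2.73 and -5.92 in tg DP 4, 6, 6A and 6B, a difference of -1.61. It was not well above background on tg DP 6B. Bbc3, the p53-induced death inducer Puma, differed by -0.23 ± 0.16.

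**Figure D4:**
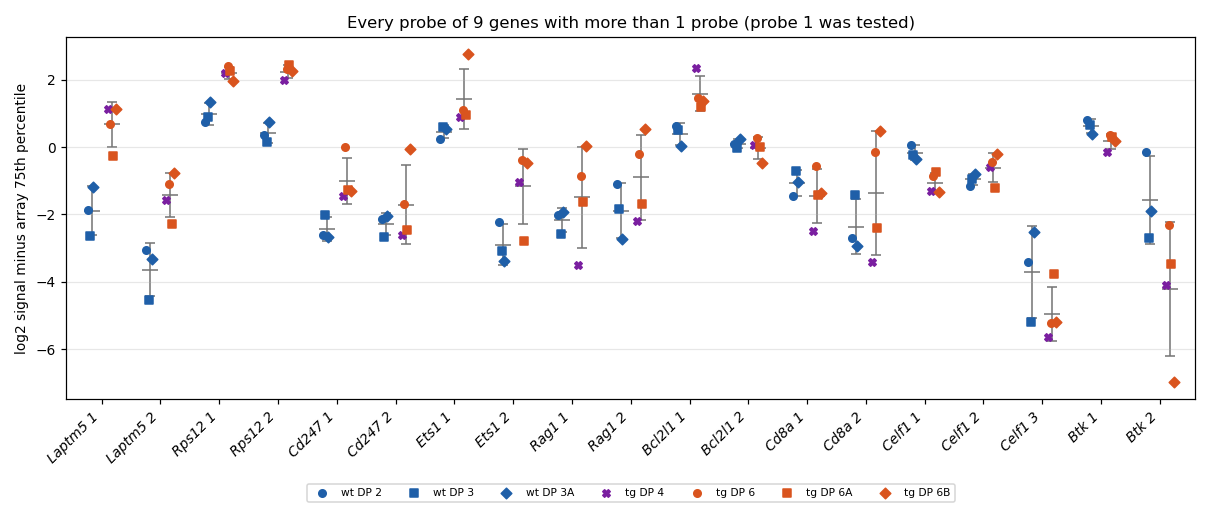
Every probe of 9 genes, one point per array with mean and SD on the log2 scale; probe 1 of each gene was tested. The probes of Laptm5 and Rps12 all keep tg above wt, whereas the probes of Bcl2l1, Cd8a and Celf1 differ in direction.

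Trac and Trbc1, of the list of TCR constant genes, spread widely within the tg group. Trac, the alpha constant region, measured -2.79, -2.51 and -4.99 in wt and -7.53, -1.91, -5.23 and -0.83 in tg DP 4, 6, 6A and 6B, a span that holds the whole wt range. It was well above background in only 2 tg samples, 6 and 6B. Trbc1, a beta constant region, measured 2.43, 2.46 and 2.28 in wt and 1.91, 3.18, 2.32 and 3.89 in tg, a difference of 0.43 ± 0.35. The 4 genes measured of this list had a median of 0.30, which was 0.75 without tg DP 4 and 0.05 with arrays of a number averaged. Among them, Tcra was read by a probe at chr14:54431211-54431270, away from the Trac probe at chr14:54841802-54842701. Whether the Tcra probe reads a constant region was not looked up. It measured 0.12 in wt and 0.30 in tg DP cells, but 0.62 to 0.96 in the B cell groups, so it did not mark T cells here. The list median rests in part on this probe. Of the variable genes, 17 of 37 Trav genes (median -0.03) and 12 of 21 Trbv genes (median 0.06) were higher in tg.

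In the TCR complex and its proximal signalling, 14 of 20 genes were higher in tg, with a median of 0.12. Cd247, the zeta chain, was the one without overlap. It measured -2.61, -2.03 and -2.66 in wt and -1.44, -0.0068, -1.29 and -1.29 in tg DP 4, 6, 6A and 6B, a difference of 1.43 ± 0.54. Its second probe overlapped and differed by 0.58. Cd2, an adhesion receptor of T cells, differed by -0.70 ± 0.45 on its tested probe and by 0.34 on its second, in the opposite direction. Cd5, whose level tracks TCR signalling, differed by 0.16 ± 0.27.

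T lineage transcription factors were higher in tg for 12 of 16, with a median of 0.16, or 0.25 without tg DP 4 and -0.03 with arrays of a number averaged. Ets1 measured 0.24, 0.58 and 0.55 in wt and 0.89, 1.10, 0.96 and 2.77 in tg, without overlap, a difference of 0.97 ± 0.59. Its second probe, with overlap at tg DP 6A, differed by 1.73. Gata3, needed for commitment and the CD4 lineage, differed by 0.97 ± 0.48, with overlapping groups. Tcf7, Lef1 and Satb1, named after their values were seen, were highest in tg DP 6B and next in tg DP 6. Tcf7, which encodes TCF-1, measured -0.56, -0.93 and -1.70 in wt and -3.35, 0.53, -0.86 and 1.08 in tg DP 4, 6, 6A and 6B.

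Il21r was the cytokine receptor that set the groups apart most. Of 14 cytokine receptors 9 were higher in tg (median 0.10), and 2 lay fully above and 1 fully below wt. Over all genes the shares were 40.6%, 2.6% and 4.29%. Il21r, the receptor of interleukin 21, measured -3.18, -1.64 and -1.79 in wt and -0.97, -0.85, -0.995 and -0.98 in tg. All tg arrays lay close together and above wt, with a difference of 1.25 ± 0.38. Tgfbr1, a TGF-beta receptor subunit, was above wt on every tg array on its tested probe, with a difference of 0.92 ± 0.63, but its 3 dimmer probes overlapped and differed by -1.30, 0.88 and 0.15. Tgfbr2, named after its values were seen, was the receptor below wt on every tg array, with -0.49. Of 13 Notch and pre-TCR genes 9 were higher (median 0.03) and none separated the groups. Dtx1, a Notch target, differed by -0.60 ± 0.32, and Il2ra, the CD25 chain of the earlier DN stages, by -0.06 ± 0.31.

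Positive selection genes (8 of 12 higher, median 0.10), DN and progenitor genes (6 of 14, median -0.12), maturation and egress genes (4 of 12, median -0.18) and homing receptors (3 of 9, median -0.14) had no member whose groups were apart. Cd69, the activation marker of selected thymocytes, ranged from -5.60 to -3.69 in wt and from -7.64 to -2.81 in tg. Of 21 cell cycle genes 8 were higher, near the 40.6% of all genes. Their median of -0.17 was -0.0013 without tg DP 4. Plk1, a mitotic kinase, differed by 0.24 ± 0.13, and Mcm5, a replicative helicase subunit, by -0.45 ± 0.33. Junb and Hspa1a, of 13 stress and immediate early genes (6 higher, median -0.08), had all tg arrays below wt, beside 4.29% of all genes. Junb, an AP-1 subunit, measured -1.35, -0.95 and -1.28 in wt and -1.80, -2.67, -1.50 and -2.31 in tg, a difference of -0.88 ± 0.32, and the heat shock protein gene Hspa1a differed by -0.47 ± 0.35.

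Interferon genes were higher in tg for 5 of 14, with a median of -0.14. Over the members tested that median was -0.32 with arrays of a number averaged, 0.0079 with array weights, -0.35 without wt DP 3A and -0.31 without tg DP 6. For p53 targets (5 of 10, median -0.09), MHC class I presentation (6 of 12, median -0.01), glycolysis (7 of 14, median 0.02), E and Id proteins (3 of 6, median -0.05) and niche ligands (5 of 12, median -0.0041) the medians lay between -0.09 and 0.02, beside -0.07 for all genes. Within these lists, Tap1, the peptide transporter, differed by 1.16 ± 0.55, with groups that overlapped. Dll1, a Notch ligand, differed by -1.002 ± 0.38, with tg DP 6 and 6A inside the wt range.

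Lists of markers of cells that a DP sort could carry over had medians between -0.18 and 0.07, beside -0.07 for all genes. Of all genes 40.6% were higher in tg. B cell markers were higher for 7 of 15 (median -0.02), MHC class II genes for 2 of 9 (median -0.16), myeloid and dendritic markers for 5 of 14 (median -0.18), erythroid markers for 2 of 8 (median -0.09), NK and innate T markers for 2 of 11 (median -0.12) and thymic epithelial markers for 7 of 12 (median 0.07). The mean level of the B cell list was -0.77 to -0.69 on wt arrays, -1.22 on tg DP 4 and -0.79 to -0.60 on the other tg arrays. Fetal liver IgM-negative B arrays stood higher on the B cell list, at -0.39 to 0.17. The tg thymic B arrays stood at -0.99 to -0.45, a range that held every wt DP array. The myeloid list stood at 0.23 to 0.42 on wt arrays and at -0.49 to 0.26 on tg arrays. On DN3 arrays it stood at -0.04 to 0.29 and on SP8 arrays at 0.31 to 0.56. Whether these lists can register carried-over cells was not tested. Itgam and Siglech are myeloid and plasmacytoid dendritic markers, named after their values were seen, and Cd22 is a B cell marker. These markers measured between 5.15 and 8.05 on every DP array, where 0 is a percentile of the array and not absence of signal. The Cd22 means of the other groups ran from 5.22 in fetal liver IgM-negative B cells to 5.67 in tg thymic B cells. The wt and tg DP means were 5.25 and 5.44. This probe thus did not separate B cells from T cells, and its level does not show B cell RNA in the DP sorts. For Itgam and Siglech the other groups are not given here.

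Itgax, the CD11c integrin of dendritic cells, measured -2.36, -2.09 and -2.94 in wt and -4.53, -4.46, -3.03 and -4.28 in tg DP 4, 6, 6A and 6B, without overlap, a difference of -1.61 ± 0.65. H2-DMa, a class II peptide exchange subunit, was lower on every tg array, with -0.78 ± 0.44, and Cd74, the invariant chain, differed by -0.62 ± 0.29 with overlap. Btk, a kinase of B and myeloid cells, was also lower on every tg array on its tested probe, with -0.44 ± 0.23. Its dimmer probe differed by -2.63, with groups that overlapped, and was well above background on 3 tg arrays. The lowest of its tg values was -6.98 on tg DP 6B. Eomes, a T-box factor of innate-like T and NK cells, measured 0.25, -0.94 and -1.59 in wt and -2.21, -1.65, -1.14 and -2.69 in tg, a difference of -1.16 ± 0.42 with overlap at tg DP 6A. The part of such cells in the differences between tg and wt was not tested.

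**Figure D5:**
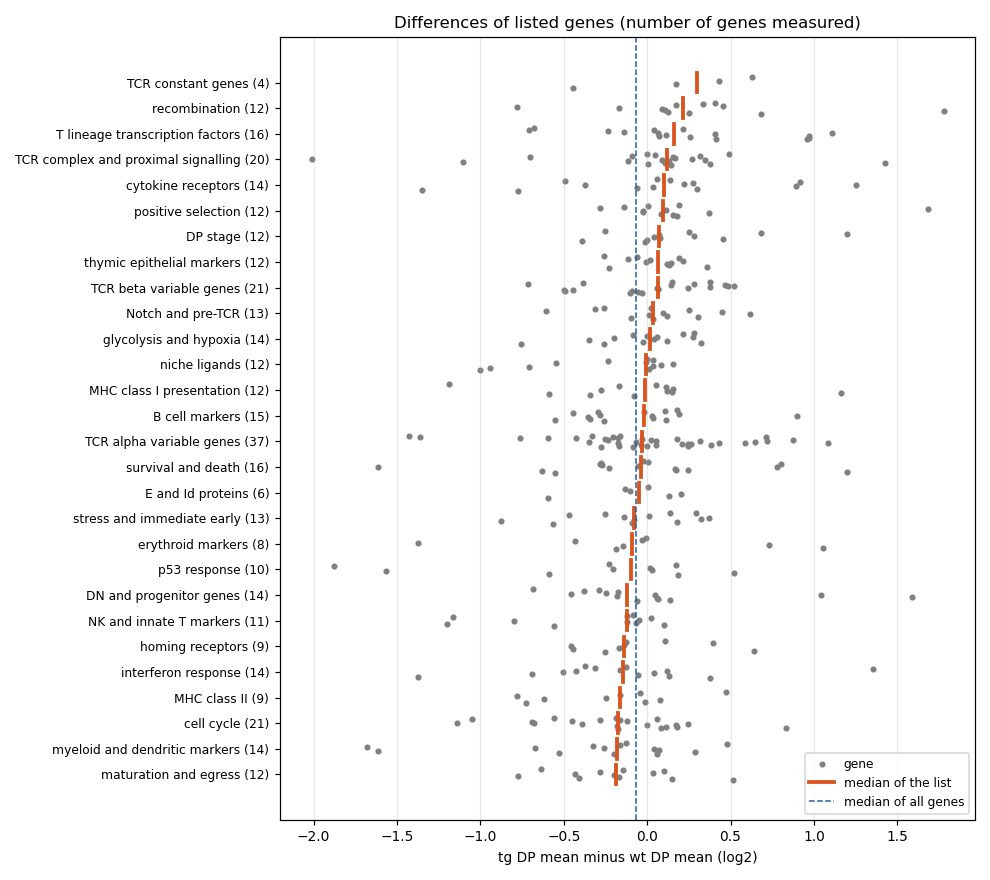
Differences between tg and wt DP means (log2) of every measured gene in 28 lists, with each list's median (orange) and the median of all genes, -0.07 (blue dashed). List medians run from -0.18 for maturation and egress to 0.30 for TCR constant genes, inside a much wider spread of single genes.

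The list medians moved with how the tg arrays were combined. With arrays of a number averaged, which gives tg DP 4 more weight, they ran from -0.40 for NK and innate T markers to 0.14 for recombination genes, and the B cell marker median was -0.33 in place of -0.02.

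The tg and wt DP means were also set against the means of the other 6 groups of the series. Among the 903 genes with all tg arrays above wt, the tg mean alone lay outside the range of the other groups' means for 29.1% and the wt mean alone for 23.9%. Among the 1492 with all tg arrays below, the shares were 17.4% and 41.0%. Over all genes measured, they were 12.6% and 15.2%. Because the 903 and 1492 genes were picked by the same DP values, shares above those of all genes follow in part from that choice.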

How the data were processed

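Each of the 24 samples was hybridised to 1 Agilent single-colour array. The scanner files hold intensities written by Feature Extraction 10.7.3.1, per the file headers. The columns used were the background-subtracted processed signal and the quality flags of each spot. A table of log2 values that the authors deposited, with equal medians on all arrays, served as an alternative; the program behind it is not stated. Control spots (3671 of 62976) were left out, 87 non-uniform values on the 7 DP arrays were set to missing, and no spot was saturated. Of 55681 probes, 24439 could not be matched to a RefSeq gene table and kept their deposited, possibly outdated name.

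Signals were taken as log2 and each array's 75th percentile was subtracted. The brightest probe stood for its gene, and a gene was tested if any of its probes was flagged well above background throughout a group (96.4% passed). The test was limma (version 3.58.1, R 4.3.3; lmFit and eBayes) on group means of all 24 arrays with Benjamini-Hochberg adjustment, and the script was tested on simulated data. The number of arrays limits the precision. Named genes were a panel of 14 (1 of which is not reported here), the 8 highest and 8 lowest moderated t among symbols well above background on all 7 DP arrays with groups that do not overlap, and up to 2 members of each of 26 lists with the largest moderated t. The members and lists were chosen with earlier results of these data known, and the lists of TCR variable genes after the files were read. Of 317 list entries 311 were measured. Alternatives were normexp background correction, quantile and median scaling, the authors' table, other filters, probe means, the DP arrays alone, arrays sharing a title number averaged or as a random block, slide as a block, array weights, and each DP array left out.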

Additional observations from a re-analysis of the deposited data

Results flagged for a closer look

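Of the 78 named genes, 5 had 1 tg array whose gap to the nearest other tg array took up more of the group's range than Dixon's limit for 4 samples allows; chance flags about 1 in 20 groups. Cd247, the TCR zeta chain, measured -0.0068 on tg DP 6 against -1.44 to -1.29 on the other tg arrays. Ets1 measured 2.77 on tg DP 6B against 0.89 to 1.10. Ifi27l2a, an interferon-induced gene, measured -3.09 on tg DP 6B against -2.11 to -2.05. Pdia3, a chaperone of MHC class I loading, measured -3.21 on tg DP 6A against -5.19 to -4.87. Itgax, the dendritic cell integrin, measured -3.03 on tg DP 6A against -4.53 to -4.28. For Cd247, Ets1 and Itgax the tg arrays stayed on one side of wt with that array included.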

How the results depend on the processing

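No paired analysis was possible because the titles of tg and wt DP arrays share no number. With each alternative and with each DP array left out, limma called 0 genes (1110 had an unadjusted p under 0.05 in the main setting), except with array weights. Those gave tg DP 4 a weight of 0.42 and tg DP 6A 3.14, and called 7: Slc13a2 (difference 2.27), Ofd1, Sos1, Gm14958, Lmln and 2 probes without a gene name. Ofd1 and Sos1 were not well above background on any tg array. Without tg DP 4, an alternative chosen after seeing the data, the genes with every tg array above wt numbered 1960 in place of 903. This count cannot fall when an array is left out, so its rise does not show that tg DP 4 hid differences.

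The directions below turned, among them those of Dclre1c (0.46 ± 0.23) and Selplg (0.40 ± 0.27), whose differences were larger than their SE; none of these genes passed the test in any setting, and the cause was not tested. With arrays sharing a number averaged, Rag1 was -0.0231, Rag2 -1.10, Cd3e -0.0721, Ptcra -0.13 and Cd69 -1.10. With that number as a random block, Rag2 was -0.59, Cd3e -0.0420, Ptcra -0.0703 and Cd69 -0.61. With the mean over probes, Cd8a was 0.30, Rag2 -0.15, Dclre1c -0.18, Selplg -0.0286 and Cldn4 0.0704. With normexp correction, Trac was 0.28, Ptcra -0.16, Il2ra 0.10 and Cd5 -0.0082. Quantile scaling gave Ptcra -0.0042 and Il2ra 0.15, the authors' table -0.0024 and 0.15, and median scaling Cd4 0.0420. Array weights gave Cd4 0.0858 and Il2ra 0.23, and slide as a block gave Cd8b1 -0.0701 and Trac 0.30. With each array left out in turn, Cd4 ranged from -0.0749 to 0.0775, Cd8b1 from -0.399 to 0.23, Rag2 from -0.51 to 1.64, Cd3e from -0.0540 to 0.0646, Trac from -1.46 to 0.77, Ptcra from -0.0588 to 0.18, Il2ra from -0.26 to 0.0629, Cd69 from -0.45 to 1.16, Tcf4 from -0.18 to 0.52 and Cd5 from -0.0310 to 0.26.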
